A study of Saccharomyces cerevisiae with 15 samples.

Results

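The genes described here are 32 genes of ergosterol synthesis and sterol handling in the budding yeast Saccharomyces cerevisiae, chosen by name from the 5656 genes that the array covers. They comprise 9 genes of the mevalonate part of the pathway, 14 genes from squalene synthesis to ergosterol, 2 electron donors, 2 sterol ester synthases, 3 transcription regulators and 2 genes of sterol transport. All 32 were measured and no filter on low values was applied. Each gene is represented by its brightest probe set, and a level is log2(signal + 16) after quantile normalisation.

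RNA came from 15 cultures grown logarithmically at 30 °C in synthetic dextrose medium, 1 Affymetrix YG-S98 array each, in 5 groups of 3 biological replicates. The groups were cells expressing a fusion of Pdr1 to Cyc8, PDR1 deletion cells expressing the same fusion, cells expressing a fusion of Pdr1 to Sin3, PDR1 deletion cells, and cells with an empty vector. No deletion is named for either fusion in cells with PDR1 or for the empty vector, and no vector is named for the deletion alone. The strain, the promoter of the fusions, the portion of Pdr1 they hold and the number of clones are not stated in the labels. Pdr1 is a zinc cluster activator of drug resistance genes, Cyc8 and Sin3 belong to corepressor complexes, and the study set out to repress drug resistance genes with such fusions.

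Ergosterol is the main sterol of fungal membranes. It is built from acetyl-CoA through mevalonate, farnesyl diphosphate and squalene, and several late steps need oxygen, heme and electrons from dedicated carriers. The zinc cluster factors Upc2 and Ecm22 activate many of the pathway's genes, and surplus sterol is stored as esters. Azole and allylamine antifungals act on enzymes of the route (Erg11 and Erg1).

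The transcripts of the tested proteins followed the labels. PDR1 had a level of 4.27 to 5.05 in the deletion and averaged 6.94 in the deletion with Pdr1-Cyc8, against 8.40 to 9.25 on the other 9 arrays. CYC8 was at 10.99 to 12.61 on the 6 arrays with a Cyc8 fusion and at 8.52 to 9.27 elsewhere, and SIN3 at 11.31 to 11.58 with Pdr1-Sin3 and at 8.08 to 8.75 elsewhere. The arrays formed 2 sets by their spike-in controls: BioC minus BioB was -0.64 to -0.20 (log2) on the 6 arrays of Pdr1-Cyc8 in the deletion and Pdr1-Sin3, and 1.02 to 1.32 on the other 9. In a comparison across sets, group and set cannot be told apart. A probe set with no listed gene was at 13.79 to 14.12 in the deletion, against 4.17 to 4.68 in the deletion with Pdr1-Cyc8 and 4.17 to 4.28 in the empty vector, so another strain difference cannot be told apart from the fusion or the deletion. The mean of 66 ribosome assembly genes, relative to the empty vector mean, was -1.26 to -0.46 for Pdr1-Cyc8, -0.05 to 0.04 for Pdr1-Cyc8 in the deletion, -0.74 to -0.58 for Pdr1-Sin3, and -1.70 to -0.18 for the deletion. The small number of arrays limits precision, and p-values measure the spread between these cultures. The arrays compare RNA of whole cultures, so fewer cells with a transcript and less transcript per cell cannot be told apart.

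**Figure D1:**
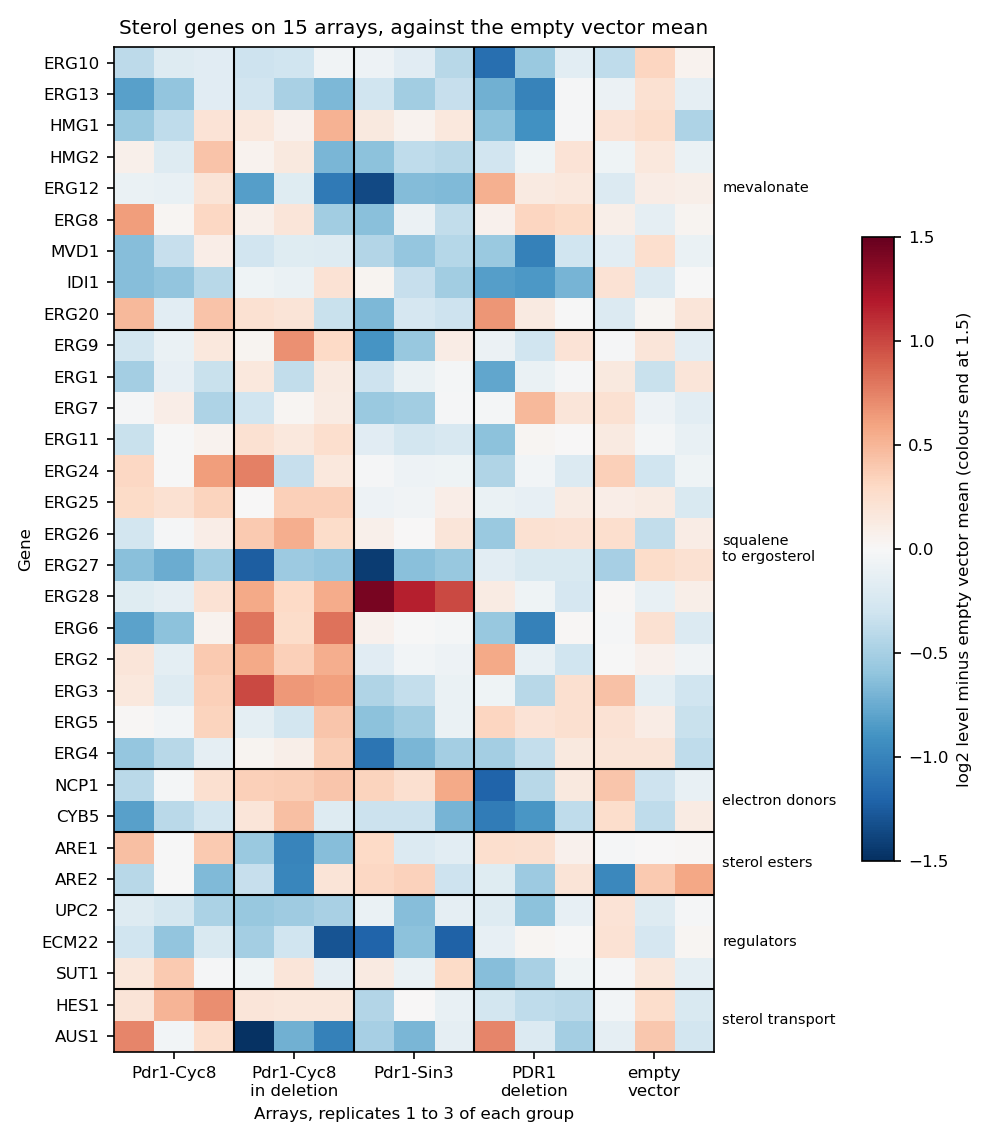
Level of each of the 32 genes on each of the 15 arrays, as the log2 difference from the gene's mean in the empty vector group. Rows are genes ordered by role and columns are arrays by group; ERG28 stands out on the 3 Pdr1-Sin3 arrays, where its level was 9.22 to 9.65.

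In all, 9 of the 32 genes changed in at least 1 of 7 comparisons, at a Benjamini-Hochberg adjusted p under 0.05 in limma over 9275 probe sets, and 23 changed in none. The 9 were the enzymes' genes ERG12, IDI1, ERG6 and ERG3, the scaffold gene ERG28, the electron donor CYB5, the ester synthase ARE1, the regulator ECM22 and the transporter AUS1. Within a group, the median SD of the 32 genes was 0.28, against 0.35 for all probe sets and 0.32 with 1 probe set per gene. The range of their 5 group means had a median of 0.68, against 0.69 for all probe sets and 0.67 with 1 probe set per gene.

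**Figure D2:**
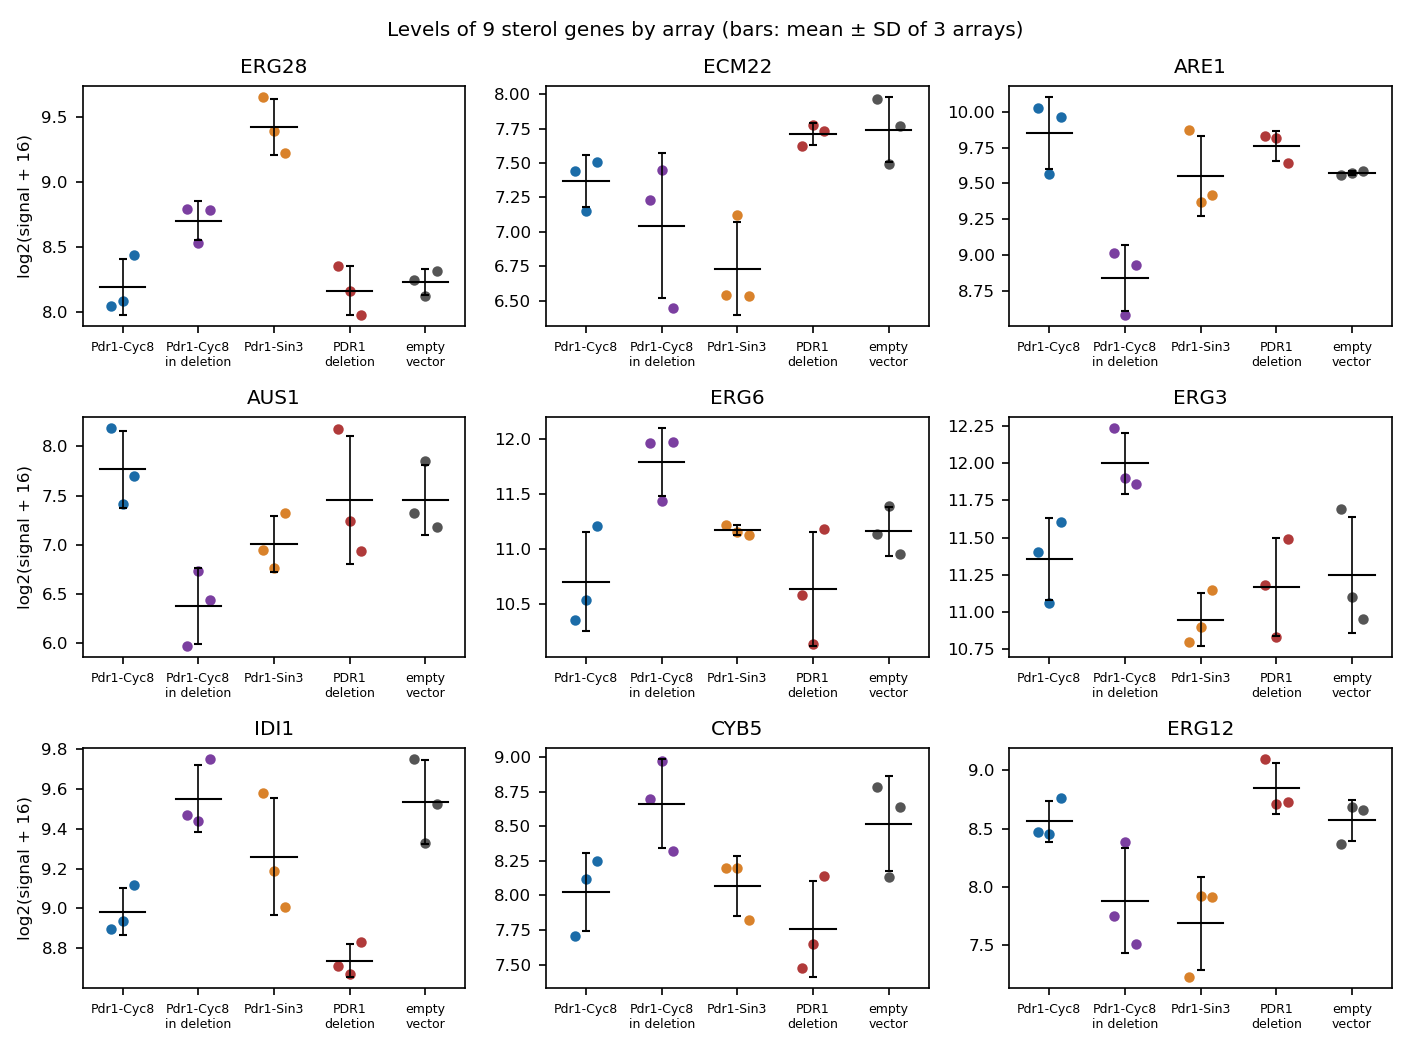
Level, log2(signal + 16), of each gene that changed in at least 1 comparison, with 1 point per array, a horizontal line at the group mean and error bars of 1 SD (n = 3). ARE1 lies at 8.58 to 9.02 with Pdr1-Cyc8 in the deletion, below every other array.

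Pdr1-Cyc8 in cells with PDR1 left the 32 genes without a called change. None of the 32 passed the test against the empty vector, where 0.712% of all probe sets did. An unadjusted p under 0.05 in limma was found for 3 of the 32 genes and for 909 of all 9275 probe sets. The median difference was -0.07 over the 32 genes and -0.03 over all probe sets; without Pdr1-Cyc8 replicate 1, the lowest of its group in ribosome assembly genes, and deletion replicates 1 and 2, it was 0.03 over the 32 genes. The lowest adjusted p, 0.351, belonged to IDI1, the isopentenyl diphosphate isomerase, with a difference of -0.55 ± 0.20 (SE, n = 3 each, limma). Its levels were 8.90, 8.94 and 9.12 with Pdr1-Cyc8, against 9.75, 9.33 and 9.53 in the empty vector, so the groups did not overlap. Of the 32 genes, 5 (15.6%) showed no overlap between the groups, against 16.2% of all probe sets. The 95% intervals of 26 of the 32 differences lay wholly between -1 and 1.

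Against the empty vector, Pdr1-Sin3 raised 1 of the 32 genes and lowered 1, or 6.25%, while 3.71% of all probe sets changed, 2.65% up and 1.06% down. ERG28 encodes the scaffold that holds the demethylation enzymes Erg25, Erg26 and Erg27 together at the endoplasmic reticulum. Its levels were 9.65, 9.39 and 9.22 with Pdr1-Sin3, against 8.24, 8.12 and 8.32 in the empty vector. Every Pdr1-Sin3 array lay above all 12 others, and the difference was 1.19 ± 0.20 (SE, n = 3 each; adjusted p 0.00363, limma). The transcripts of the enzymes it holds did not pass the test: ERG27 differed by -0.87 (adjusted p 0.0907, limma). With Pdr1-Cyc8 in the deletion, in the same spike-in set as Pdr1-Sin3, ERG28 differed from the empty vector by 0.47, without a call. Pdr1-Cyc8 in the deletion minus Pdr1-Sin3 was -0.72 for ERG28, also without a call. The comparison of Pdr1-Sin3 with the empty vector crosses the spike-in sets, so group and set cannot be told apart.

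ECM22, which encodes the activator of sterol genes related to Upc2, was lower with Pdr1-Sin3 than in the empty vector. Its levels were 6.54, 7.13 and 6.53 with Pdr1-Sin3, against 7.96, 7.49 and 7.77 in the empty vector, with no overlap. The difference was -1.01 ± 0.26 (SE, n = 3 each; adjusted p 0.0428, limma). That call was lost when any empty vector array or Pdr1-Sin3 replicate 1 or 3 was left out, with adjusted p 0.152, 0.0709 and 0.101 without empty vector replicates 1, 2 and 3, and 0.158 and 0.132 without the Pdr1-Sin3 ones. With Pdr1-Cyc8 in the deletion, in the same spike-in set as Pdr1-Sin3, ECM22 differed from the empty vector by -0.70, without a call. Pdr1-Cyc8 in the deletion minus Pdr1-Sin3 was 0.31, also without a call. Comparisons of either group with the empty vector cross the spike-in sets, so group and set cannot be told apart. UPC2 was dim, with levels of 5.35 to 5.89 with Pdr1-Sin3 and 5.81 to 6.20 in the empty vector.

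Most other sterol genes had lower means with Pdr1-Sin3 without passing the test. Of the 32 differences 25 were below 0, with a median of -0.29, against -0.01 over all probe sets. Of all probe sets, 48.7% were above 0. In the mevalonate part 8 of 9 were below 0, and ERG12, the mevalonate kinase, differed by -0.88 (adjusted p 0.0720, limma). At its other probe sets ERG12 differed by -0.59, -0.30 and 0.12, and none was called. ERG4, the last reductase of the route, differed by -0.76 (adjusted p 0.0977, limma). Groups did not overlap for 10 of the 32 genes (31.2%), against 29.9% of all probe sets. This comparison crosses the 2 spike-in sets.

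**Figure D3:**
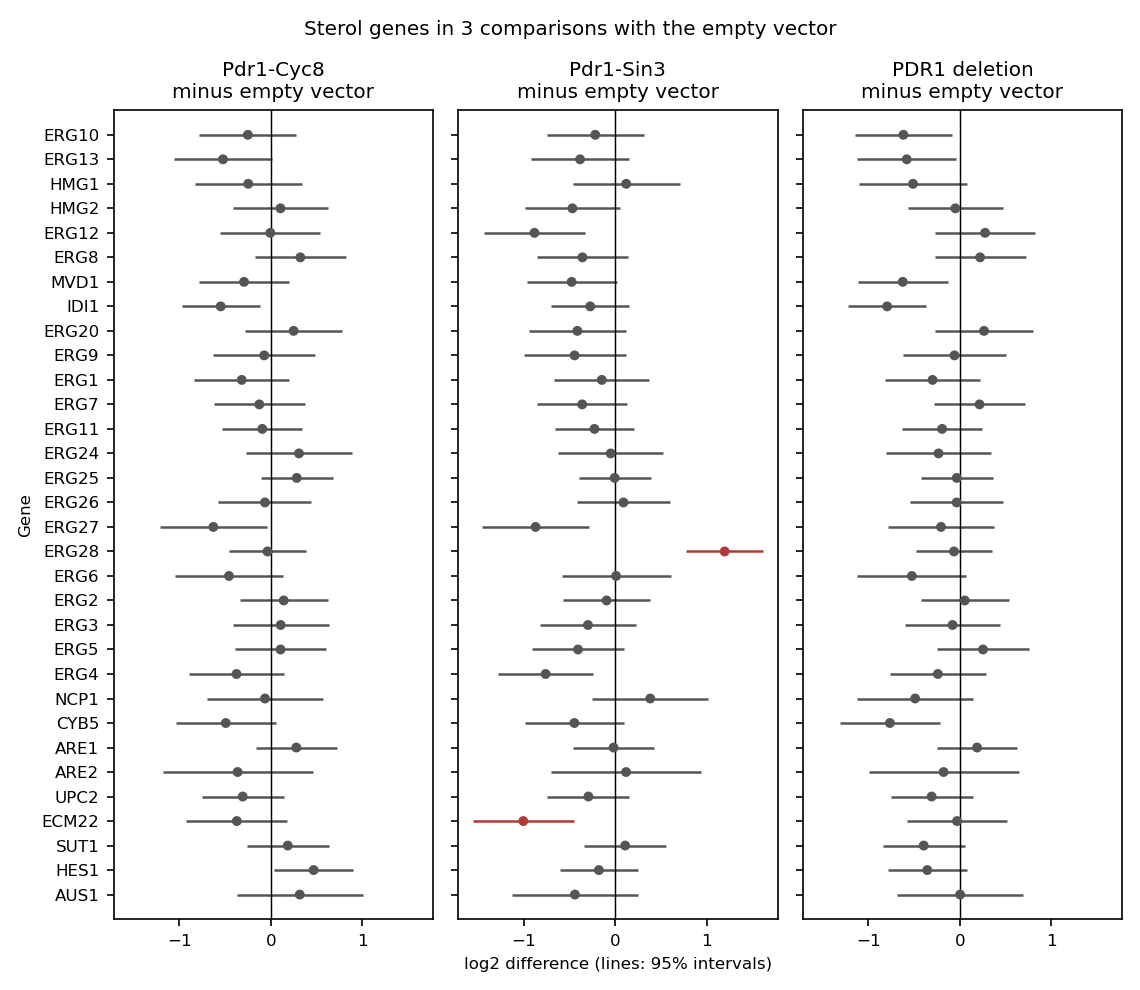
Log2 difference from the empty vector for the 32 genes, with 95% intervals as lines, for Pdr1-Cyc8, Pdr1-Sin3 and the PDR1 deletion (left to right). Red marks an adjusted p under 0.05: ERG28 at 1.19 and ECM22 at -1.01 with Pdr1-Sin3.

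Deletion of PDR1 alone gave no called change among the 32 genes, where 0.0323% of all probe sets changed. Of the 32 genes 5 had an unadjusted p under 0.05 in limma, as did 1274 of all 9275 probe sets. The 2 largest differences were in IDI1, at -0.80 ± 0.20, and CYB5, at -0.77 ± 0.26 (SE, n = 3 each; adjusted p 0.159 and 0.243, limma). IDI1 had levels of 8.71, 8.67 and 8.83 in the deletion, against 9.75, 9.33 and 9.53 in the empty vector, with no overlap. Groups did not overlap for 5 of the 32 genes (15.6%), against 13.3% of all probe sets. Of the 32 differences 24 were below 0, with a median of -0.19, against 0.00 over all probe sets. Of all probe sets, 50.6% were above 0. The mean of the 32 genes, relative to the empty vector mean, was -0.26, -0.28 and -0.04 on deletion replicates 1, 2 and 3. Replicates 1 and 2 were low in ribosome assembly genes and replicate 3 was at -0.18. With the 3 arrays low in ribosome assembly left out, 1 deletion array remained, replicate 3. The median difference was then -0.0035 and 13 of the 32 differences changed sign, values that rest on that array alone. Without deletion replicate 3, 4 of the 32 genes were called, ERG10, ERG13, IDI1 and CYB5, beside 8.97% of all probe sets.

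In PDR1 deletion cells, Pdr1-Cyc8 raised 4 of the 32 genes and lowered 3 relative to the deletion alone. That is 21.9% of the genes, near the 19% of all probe sets that changed (10.3% up and 8.7% down). With 1 probe set per gene, 18.9% changed, 12.2% up and 6.67% down. Genes of an isomerase (IDI1), a sterol methyltransferase (ERG6), a sterol desaturase (ERG3) and an electron carrier (CYB5) rose. Genes of mevalonate kinase (ERG12), a sterol ester synthase (ARE1) and a sterol importer (AUS1) fell. The median difference was 0.39 over the 32 genes and 0.01 over all probe sets. The groups did not overlap for 16 of the 32 genes (50%), against 31.5% of all probe sets. This comparison crosses the 2 spike-in sets, so group and set cannot be told apart.

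ERG6 had levels of 11.97, 11.44 and 11.97 with Pdr1-Cyc8 in the deletion, against 10.59, 10.15 and 11.18 in the deletion alone. The groups did not overlap, and the difference was 1.15 ± 0.28 (SE, n = 3 each; adjusted p 0.0115, limma). ERG3 was at 12.24, 11.90 and 11.86 with the fusion, against 11.18, 10.83 and 11.49 without it, a difference of 0.83 ± 0.25 (SE, n = 3 each; adjusted p 0.0294, limma). Both enzymes act in the late part of the route, where 11 of 14 genes had a higher mean with the fusion and 2 passed the test. Over all probe sets, 50.9% had a higher mean. The median difference of the 14 genes was 0.41. It was 0.16 without the 3 arrays low in ribosome assembly genes, with 1 deletion array left.

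IDI1, which makes a building block of farnesyl diphosphate, was at 9.47, 9.44 and 9.75 with the fusion, against 8.71, 8.67 and 8.83 in the deletion alone. Its difference was 0.81 ± 0.20 (SE, n = 3 each; adjusted p 0.0127, limma). The levels with the fusion overlapped those of the empty vector, 9.33 to 9.75. ERG12 went the other way, with 7.74, 8.39 and 7.51 with the fusion against 9.10, 8.71 and 8.73 without it, a difference of -0.97 ± 0.26 (SE, n = 3 each; adjusted p 0.0181, limma). The 4 probe sets of ERG12 disagreed: the other 3 differed by -0.83, -0.41 and 0.16, and none was called.

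CYB5, a small cytochrome that passes electrons to sterol enzymes, had levels of 8.70, 8.97 and 8.33 with the fusion, against 7.47, 7.65 and 8.14 in the deletion alone. It rose by 0.91 ± 0.26 (SE, n = 3 each; adjusted p 0.0232, limma). NCP1, the reductase that supplies Erg11 with electrons, did not pass, at 0.87 ± 0.30 (adjusted p 0.0531, limma). Its groups did not overlap, as was so for 31.5% of all probe sets.

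ARE1, which esterifies sterols for storage, had levels of 9.02, 8.58 and 8.93 with the fusion, against 9.83, 9.82 and 9.64 in the deletion alone. It fell by 0.92 ± 0.21 (SE, n = 3 each; adjusted p 0.00770, limma). Its partner ARE2 was near the floor, with levels of 4.44 to 5.60 with the fusion and 4.86 to 5.60 in the deletion. AUS1, an ABC transporter that takes up sterol when oxygen is lacking, was at 5.97, 6.73 and 6.44 with the fusion, against 8.18, 7.25 and 6.94 in the deletion. It fell by 1.08 ± 0.32 (SE, n = 3 each, adjusted p 0.0316, limma). At its other probe sets AUS1 differed by -1.28, -1.05, -0.72, -0.57 and -0.28, and of these only -1.05 was called. HES1, an oxysterol-binding protein homologue, was close to the floor at 4.76 to 4.78 with the fusion and 4.18 to 4.32 in the deletion.

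Values were also computed without the arrays low in ribosome assembly genes. With replicates 1 and 2 of the deletion and replicate 1 of Pdr1-Cyc8 left out, none of the 32 genes was called, the median difference was 0.04, and 3.33% of all probe sets were called. The differences were then 0.61 for ERG6, 0.51 for ERG3, 0.72 for IDI1, 0.52 for CYB5, -0.85 for ERG12, -0.80 for ARE1 and -0.56 for AUS1, with 1 deletion array left, whose spread is taken from the other groups. On all 15 arrays, 30 of the 66 ribosome assembly genes rose in the same comparison, where 10.3% of all probe sets rose, and their part in the sterol genes' changes was not tested. A fit of only these groups called ARE1 alone. ARE1 kept its call whichever single array was left out. The others did not: ERG6 lost it without deletion replicate 2 (adjusted p 0.0580) and IDI1 without fusion replicate 3 (0.0502). ERG12 lost it without deletion replicate 1 (0.0688) or fusion replicate 1 (0.0624) or 3 (0.0770). CYB5 lost it without deletion replicate 1 (0.0880) or 2 (0.0749) or fusion replicate 1 (0.0642) or 2 (0.0916). AUS1 lost it without deletion replicate 1 (0.145) or 2 (0.0549) or fusion replicate 1 (0.124) or 3 (0.0675). ERG3 lost it without deletion replicate 1 (0.0661) or 2 (0.124) or any of the 3 fusion arrays (0.107, 0.0554 and 0.0502).

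**Figure D4:**
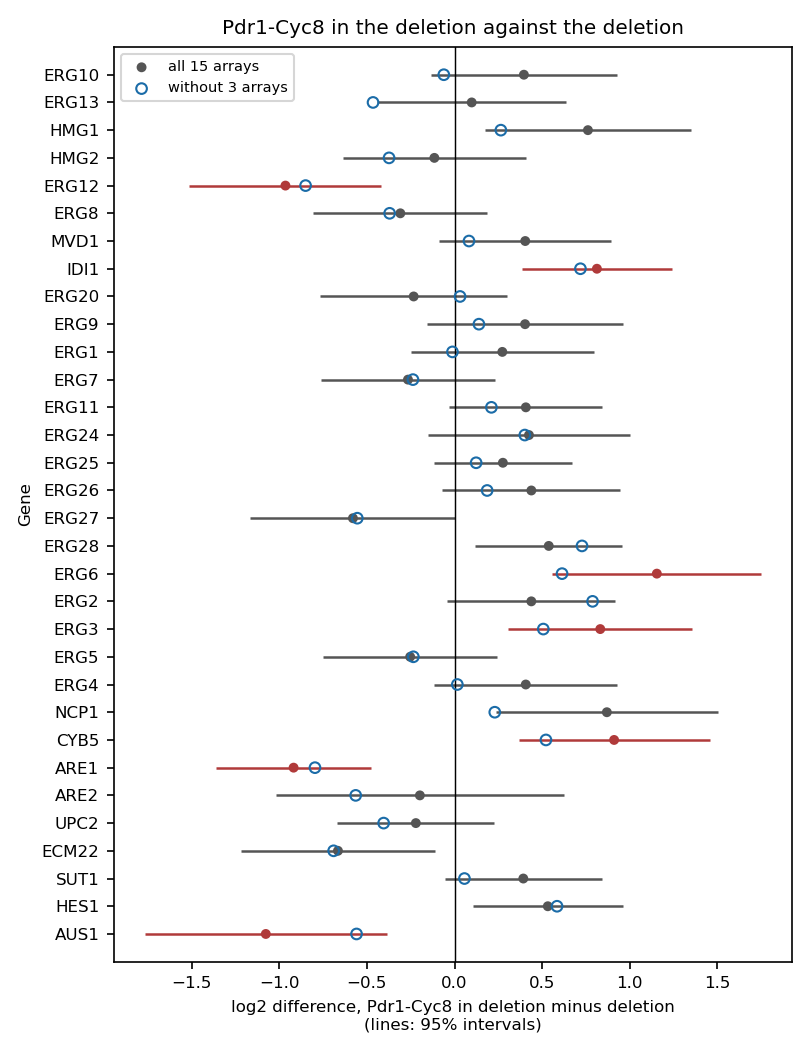
Log2 difference for the 32 genes with 95% intervals as lines, for Pdr1-Cyc8 in the deletion minus the deletion alone. Red marks an adjusted p under 0.05 and open blue circles the value with the 3 arrays low in ribosome assembly left out; ERG6 is at 1.15, and at 0.61 without those arrays.

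Set against the empty vector, Pdr1-Cyc8 in the deletion changed 1 of the 32 genes, or 3.12%, while 8.47% of all probe sets changed. ARE1 had levels of 9.02, 8.58 and 8.93 with the fusion, against 9.56, 9.57 and 9.59 in the empty vector, and fell by 0.73 ± 0.21 (SE, n = 3 each; adjusted p 0.0396, limma). The call was lost without any 1 of the 6 arrays, with adjusted p 0.0595, 0.141 and 0.0725 without the fusion's replicates 1, 2 and 3, and 0.0878, 0.105 and 0.0965 without those of the empty vector. AUS1 differed by -1.07 ± 0.32 (adjusted p 0.0528, limma), with 5.97, 6.73 and 6.44 with the fusion against 7.32, 7.85 and 7.18 in the empty vector. Differences above and below 0 were equal in number, 16 each, and the comparison crosses the spike-in sets. Of all probe sets, 51.3% were above 0.

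Pdr1-Cyc8 in the deletion and Pdr1-Sin3 lay in the same spike-in set. Between them 1 of the 32 genes changed, or 3.12%, against 2.53% of all probe sets. ERG3 was at 12.24, 11.90 and 11.86 with Pdr1-Cyc8 in the deletion, against 10.80, 10.90 and 11.15 with Pdr1-Sin3, and was higher by 1.05 ± 0.25 (SE, n = 3 each; adjusted p 0.0354, limma). It lost the call without any 1 of the 6 arrays, with adjusted p 0.118, 0.0830 and 0.0662 without replicates 1, 2 and 3 of Pdr1-Cyc8 in the deletion, and 0.128, 0.0836 and 0.0814 without those of Pdr1-Sin3. In the late part of the route 13 of 14 genes had a higher mean with Pdr1-Cyc8 in the deletion, against 53.1% of all probe sets. The exception was ERG28, at 8.79, 8.52 and 8.78 against 9.65, 9.39 and 9.22 with Pdr1-Sin3, a difference of -0.72 (adjusted p 0.0635, limma).

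The effect of Pdr1-Cyc8 in deletion cells differed from its effect in cells with PDR1 for 4 of the 32 genes, or 12.5%, while 11.5% of all probe sets differed. Of the 4 groups used, only Pdr1-Cyc8 in the deletion lies in the second spike-in set, so group and set cannot be told apart. Another strain difference between the deletion groups cannot be told apart from the fusion either. The difference of effects was 1.61 ± 0.40 for ERG6 (adjusted p 0.0203), 1.40 ± 0.36 for CYB5 (adjusted p 0.0250) and 1.36 ± 0.28 for IDI1 (adjusted p 0.0108), as SE in limma over 4 groups of 3 arrays. For ARE1 it was -1.20 ± 0.29 (adjusted p 0.0202, limma). ERG6 was at 10.36, 10.54 and 11.21 with Pdr1-Cyc8 in cells with PDR1, against 11.14, 11.39 and 10.95 in the empty vector, where the groups overlapped. CYB5 was at 7.71, 8.12 and 8.25 with Pdr1-Cyc8, against 8.79, 8.13 and 8.64 in the empty vector. ARE1 was at 10.03, 9.56 and 9.96 with Pdr1-Cyc8, against 9.56, 9.57 and 9.59 in the empty vector. Of the ribosome assembly genes 39 of 66 passed the same test with a higher effect in deletion cells. Without the 3 arrays low in those genes, 1 deletion array was left. The differences of effects were then 1.22 for IDI1, 0.90 for ERG6, 0.86 for CYB5 and -0.99 for ARE1. The part of those arrays in the difference was not tested. IDI1 kept its call whichever single array was left out. ERG6 lost it without Pdr1-Cyc8 replicate 1 (adjusted p 0.0580) or deletion replicate 2 (0.0570), and ARE1 without Pdr1-Cyc8 replicate 1 (0.0566). CYB5 lost it without replicate 1 of the empty vector (0.0700), of Pdr1-Cyc8 (0.0699) or of the deletion (0.0572), deletion replicate 2 (0.0606), or replicate 1 (0.0516) or 2 (0.0574) of Pdr1-Cyc8 in the deletion.

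The other 23 genes passed the test in no comparison. HMG1 and HMG2 encode the HMG-CoA reductases, the main control point of the mevalonate part. HMG1 came nearest to a call in that part, at 10.23, 10.14 and 10.59 with Pdr1-Cyc8 in the deletion, against 9.46, 9.16 and 10.05 in the deletion alone, a difference of 0.76 ± 0.28 (SE, n = 3 each; adjusted p 0.0668, limma). HMG2 differed by -0.47 to 0.31 over the 6 comparisons of 2 groups.

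The genes of both antifungal targets passed the test in no comparison. ERG11, the lanosterol demethylase that azoles inhibit, was at 12.36, 12.28 and 12.38 with Pdr1-Cyc8 in the deletion, against 11.52, 12.16 and 12.13 in the deletion alone, a difference of 0.41 ± 0.20 (SE, n = 3 each; adjusted p 0.184, limma). These groups did not overlap, as was so for 31.5% of all probe sets. The 6 differences of ERG11, from -0.23 to 0.44, all stayed short of the threshold. ERG1, the squalene epoxidase that allylamines inhibit, differed by -0.32 to 0.27. SUT1, a regulator that promotes sterol uptake, differed by -0.40 to 0.39.

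**Figure D5:**
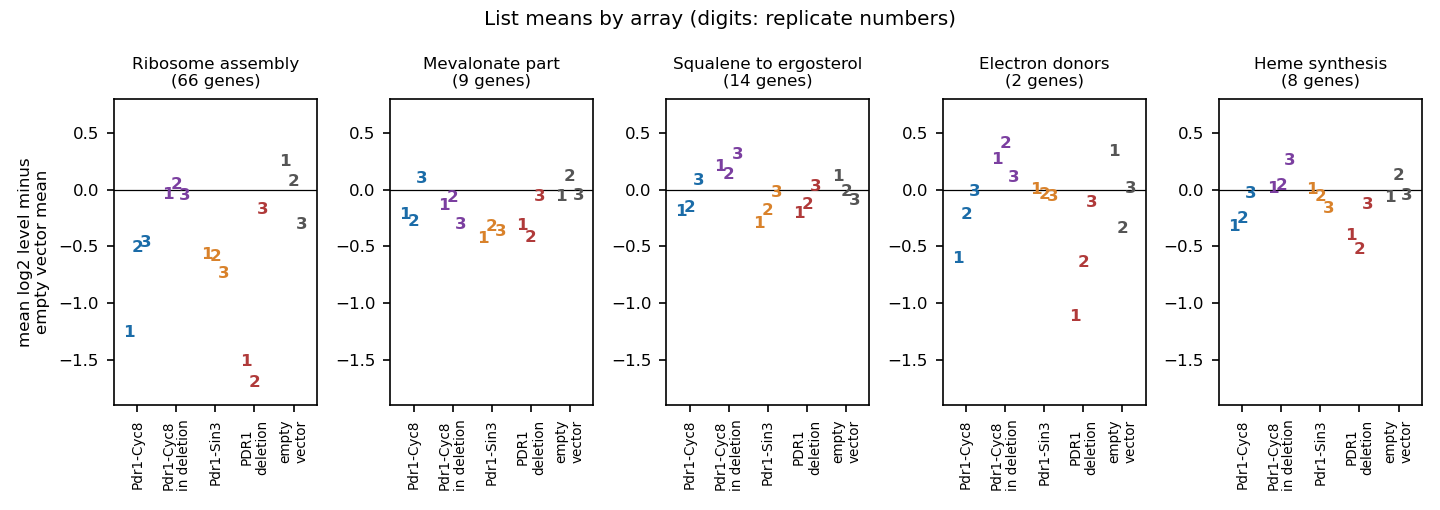
Mean log2 difference from the empty vector mean over the genes of 5 lists, with groups along the axis and each array drawn as its replicate number. Ribosome assembly genes spread from -1.70 to -0.18 in the deletion, while the 3 arrays of Pdr1-Cyc8 in the deletion lie between -0.05 and 0.04.

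Other genes of the pathway were read from 5 lists. In cells with PDR1, Pdr1-Cyc8 changed 1 of 19 genes of sterol uptake and transfer and no gene of the other 4 lists, where 0.712% of all probe sets changed. That gene was PDR16, a phosphatidylinositol transfer protein and known target of Pdr1. Its levels were 7.90, 8.93 and 8.79 with Pdr1-Cyc8, against 9.74, 10.08 and 9.96 in the empty vector, and it fell by 1.39 ± 0.26 (SE, n = 3 each; adjusted p 0.0188, limma). It lost the call without Pdr1-Cyc8 replicate 1 (adjusted p 0.0904) or without any of the 3 empty vector arrays (0.0553, 0.0768 and 0.0693). None of the 19 was called with the 3 arrays low in ribosome assembly left out. With Pdr1-Sin3, SPF1, an ATPase of the endoplasmic reticulum, fell by 1.23 ± 0.20 (SE, n = 3 each; adjusted p 0.00333, limma). Its levels were 9.29, 9.01 and 9.04 with Pdr1-Sin3, against 10.10, 10.60 and 10.34 in the empty vector. With Pdr1-Cyc8 in the deletion, SPF1 differed from the empty vector by -0.93. Both comparisons cross the spike-in sets, so group and set cannot be told apart. Deletion alone changed no gene of the 5 lists.

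With Pdr1-Cyc8 in the deletion, 5 of 19 genes of sterol uptake and transfer fell and none rose relative to the deletion alone. Of all probe sets 8.7% fell and 10.3% rose, and with 1 probe set per gene 6.67% fell and 12.2% rose. PDR16 fell by 2.09 and LAM4, a sterol transfer protein of membrane contact sites, by 1.68 (adjusted p 0.000122 and 0.000361, limma). LAM4 was at 7.19, 6.81 and 7.17 with the fusion, against 8.45, 9.07 and 8.71 in the deletion alone. OSH6, known as a phosphatidylserine carrier, fell by 0.92 and NCR1, a vacuolar membrane protein, by 0.84. Among heme synthesis genes 2 of 8 rose, against those 10.3% of all probe sets, HEM1 by 1.01 and HEM4 by 0.99. YEH1, a steryl ester hydrolase, rose by 1.54, SUT2, a relative of the regulator SUT1, by 1.03, and RER2, a prenyltransferase of dolichol synthesis, by 0.62, while HRD3, a partner of the ligase that degrades Hmg2, fell by 0.81. With the 3 arrays low in ribosome assembly left out, PDR16, LAM4 and SUT2 kept their calls and the others did not. PDR16, LAM4, SUT2, HEM4 and HRD3 kept theirs whichever single array was left out. YEH1 lost its call without deletion replicate 2 (adjusted p 0.0576). OSH6 lost it without deletion replicate 2 (0.0646) or fusion replicate 1 (0.101), and NCR1 without deletion replicate 1 (0.0531) or 2 (0.0501) or fusion replicate 3 (0.0670). RER2 lost it without deletion replicate 2 (0.0937) or fusion replicate 1 (0.0567) or 3 (0.0781). HEM1 lost it without deletion replicate 1 (0.166) or 2 (0.0875) or any fusion array (0.0818, 0.0801 and 0.0905).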

How the data were processed

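Biotinylated cRNA from 10 ug of total RNA was hybridised to Affymetrix YG-S98 arrays, per the labels' protocols. The deposited table holds linear intensity values, 1 per probe set and array, with arrays already on a common scale; how the software corrected background and scaled them is not stated in the labels. Of 9335 probe sets, 60 controls were left out and 9275 tested, of which 6504 matched 1 gene in the platform annotation, 328 several and 2443 none; older names were updated from the RefSeq gene table. The array medians were 116.1 to 141.5, total signal 6777259 to 7657996, and 835 to 1364 probe sets had a signal under 16. No 2 arrays held identical values.

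Intensities were quantile normalised over the 9275 probe sets and converted to log2(value + 16), so differences of dim genes are understated. limma 3.58.1 (R 4.3.3) was fitted to all groups together, 15 arrays in 1 fit (10 residual and 5.35 prior degrees of freedom), with Benjamini-Hochberg adjustment over 9275 probe sets in each of 7 comparisons; an adjusted p under 0.05 was called. The interaction is the effect of Pdr1-Cyc8 in the deletion minus its effect with PDR1. Groups came from the sample titles. Members and lists were chosen with earlier results of these data known, and the ribosome assembly list was written from general knowledge. Values on each array are given for genes called in any comparison, other genes by range and count, and up to 4 called genes of each further list. The limma fit was tried on simulated log2 levels with independent noise on each array. Normalisation, the choice of probe set and shifts of whole arrays were not simulated. Alternatives tried were median centring, the deposited scale, a pseudocount of 1 or 64, leaving out the dimmest 25% of probe sets, a trend with a robust prior, array weights, only the groups compared, any probe set of a gene, the replicate number as a block, each array left out, and a fit with the 3 arrays low in ribosome assembly left out. Figures were drawn with matplotlib 3.10.9.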

Additional observations from a re-analysis of the deposited data

Results flagged for a closer look

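The effect of Pdr1-Cyc8 on 4 of the 32 sterol genes differed between deletion cells and cells with PDR1, by limma's interaction test over all probe sets. The effect in the deletion minus the effect with PDR1 was 1.36 for IDI1 (SE 0.28, adjusted p 0.0108), with effects of 0.81 in the deletion and -0.55 with PDR1. It was 1.61 for ERG6 (SE 0.40, adjusted p 0.0203) and 1.40 for CYB5 (SE 0.36, adjusted p 0.0250). For ARE1 it was -1.20 (SE 0.29, adjusted p 0.0202), with effects of -0.92 in the deletion and 0.28 with PDR1. The share of the 32 genes, 12.5%, lay near that of all probe sets, 11.5%. With the 3 arrays low in ribosome assembly left out, the values were 1.22, 0.90, 0.86 and -0.99 for IDI1, ERG6, CYB5 and ARE1, with adjusted p 0.162, 0.332, 0.365 and 0.249 in limma, and 1 deletion array left. The comparison also crosses the 2 spike-in sets.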

How the results depend on the processing

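Counts of called genes among the 32 changed with the processing as follows, and the cause was not tested. For Pdr1-Sin3 against the empty vector the count was 2, against 1 with the values as deposited, median centring, a pseudocount of 1 or the 3 arrays low in ribosome assembly genes left out, and 4 with array weights. For Pdr1-Cyc8 in the deletion against the deletion alone it was 7, against 0 without the 3 arrays and 1 with only the groups compared; both alternatives use fewer arrays. It was 6 with median centring, 8 with a pseudocount of 1, a trend or the dimmest probe sets left out, and 9 with a pseudocount of 64 or array weights. The count with the values as deposited took in ERG28 and HES1 but not ERG3 and AUS1. For Pdr1-Cyc8 in the deletion against the empty vector it was 1, against 0 with the values as deposited or a pseudocount of 1, 2 with median centring, a pseudocount of 64, the dimmest probe sets left out, a trend with a robust prior or the 3 arrays left out, and 4 with array weights. Against Pdr1-Sin3 it was 1, against 0 with the values as deposited, median centring or a pseudocount of 1, 4 with a pseudocount of 64, 3 without the dimmest probe sets or with array weights, and 2 with a trend or without the 3 arrays. The interaction count was 4, against 0 without the 3 arrays, 5 without the dimmest probe sets and 6 with array weights. Leaving out 1 array at a time gave 0 for Pdr1-Cyc8 against the empty vector, 1 to 2 for Pdr1-Sin3, 0 to 4 for the deletion (4 without deletion replicate 3), 3 to 9 for Pdr1-Cyc8 in the deletion against the deletion, 0 to 2 against the empty vector, 0 against Pdr1-Sin3, and 1 to 7 for the interaction. ERG28 with Pdr1-Sin3 kept its call under each alternative, with adjusted p 0.000757 to 0.0273 in limma. Each of these fits compares groups of different spike-in sets. At its brightest probe set, no called gene among the 32 changed direction under any alternative run. Genes that were not called did: without the 3 arrays, 13 of the 32 changed sign for the deletion, 6 for Pdr1-Cyc8 against the empty vector, 4 for Pdr1-Cyc8 in the deletion against the deletion and 5 for the interaction. Over all probe sets, the called number ranged from 10 to 109 for Pdr1-Cyc8 (66), 130 to 770 for Pdr1-Sin3 (344) and 2 to 832 for the deletion (3). For Pdr1-Cyc8 in the deletion it ranged from 309 to 2224 against the deletion (1760), 366 to 1215 against the empty vector (786) and 67 to 533 against Pdr1-Sin3 (235), and from 51 to 1805 for the interaction (1067).

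A correlation of deviations over 0.1 was found for 3 of 30 pairs of arrays with the same replicate number in different groups. It was found for 11 of 60 pairs with different numbers. Deviations from a mean of 3 arrays are not independent, so these counts cannot exclude a pairing. With the replicate number as a block the count was 1 for Pdr1-Sin3 against the empty vector, where ECM22 lost its call, and 7 for Pdr1-Cyc8 in the deletion against the deletion alone. The dim genes ARE2, UPC2 and HES1 lay near the floor set by the added 16, where differences are compressed.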

Other observations

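Between Pdr1-Cyc8 in the deletion and Pdr1-Sin3, both in the second spike-in set, 2 of the 53 genes of the further pathway lists changed, where 2.53% of all probe sets did. ATF2, an acetyltransferase that acts on sterols, differed by 0.99 (adjusted p 0.0409, limma) and PDR16 by -1.57 (adjusted p 0.00492, limma). ATF2 lost the call without replicate 1 (adjusted p 0.131) or 3 (0.111) of Pdr1-Cyc8 in the deletion, or any Pdr1-Sin3 array (0.116, 0.0598 and 0.167). Against the empty vector, Pdr1-Cyc8 in the deletion gave differences of -2.52 for PDR16 and -0.93 for SPF1 (adjusted p 3.52e-05 and 0.0101, limma). SPF1 lost the call without empty vector replicate 2 (adjusted p 0.0566, limma). That comparison crosses the spike-in sets, so group and set cannot be told apart.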
